A study of Homo sapiens with 8 samples.

Results

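DNA replication and G1/S genes are 47 genes whose products load, start and run the replication fork, supply it with nucleotides, repackage the copied DNA, or switch cells from G1 into S phase. They were taken by name from this function, in 8 roles, with earlier results of these data known. The choice was thus not independent of the values reported here. All 47 were among the 12012 genes tested. RNA came from HMLE cells, human mammary epithelial cells that were immortalized (with SV40 large T antigen and telomerase, as background). The cells carried either a lentiviral scrambled shRNA or a single shRNA against SOX4, which encodes a SoxC transcription factor, and all were kept under puromycin at 0.5 µg/mL. Each kind of cell was either untreated or exposed to TGF-β for 16 h, with 2 libraries in each of the 4 groups and 8 in all. Whether both libraries of a group are separate cultures is not stated in the labels, so the p-values reflect the spread between these samples alone, possibly a technical one. With 1 shRNA sequence, an effect of losing SOX4 and an effect of that hairpin on other transcripts cannot be told apart.

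In G1 the origin recognition complex, CDC6 and CDT1 place rings of MCM2 to MCM7 on DNA, and in S phase CDC45 and the GINS complex turn these rings into the moving helicase. E2F factors, held back by the retinoblastoma protein family until cyclin-dependent kinases release them, drive the transcription of many of these genes. TGF-β is known to arrest epithelial cells in G1, through CDK inhibitors such as CDKN2B and through loss of MYC. Large T antigen binds the retinoblastoma proteins, which limits HMLE cells as a model of normal G1 control.

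The E2F site is printed for 5 members that fell with TGF-β, because E2F factors drive genes of this kind and the choice of members used no sequence. The letters TTTCCCGC, TTTCGCGC, TTTGCCGC and TTTGGCGC were searched on both strands in the 250 bases before each RefSeq transcription start (GRCh38.p14 table). A match may overlap another match on the opposite strand. At least 1 match was present in 15 of the 40 members in the table (37.5%), against 452 of the 9661 tested genes in it (4.68%) and 2 of 24 mitotic genes (8.33%). The windows of 7 of the 14 members called lower with TGF-β held a match, as did those of 8 of 26 members not called. MCM7 and RFC3 are the called members with a match that are not printed, for want of a long enough stretch outside annotated exons. CDT1, POLA1 and E2F1, not called, had such a stretch too and are not printed. Whether a match goes with a fall was not tested. In the stretches of 100 bases shown, given 5′ to 3′ along the gene's strand, capitals mark the match, and the coordinates are GRCh37 (hg19) positions on the minus strand, outside annotated exons. MCM6 holds overlapping matches on both strands, MCM3 and E2F2 hold theirs on the gene's strand, and GINS2 and PCNA hold theirs on the opposite one. The stretches lie at chr6:52149680-52149779 for MCM3, chr2:136634046-136634145 for MCM6, chr16:85722561-85722660 for GINS2, chr20:5107274-5107373 for PCNA and chr1:23857726-23857825 for E2F2.
MCM3: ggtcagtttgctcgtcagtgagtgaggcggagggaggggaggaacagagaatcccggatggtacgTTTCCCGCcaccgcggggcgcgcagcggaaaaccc
MCM6: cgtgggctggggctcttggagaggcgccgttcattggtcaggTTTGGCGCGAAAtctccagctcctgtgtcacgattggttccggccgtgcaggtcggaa
GINS2: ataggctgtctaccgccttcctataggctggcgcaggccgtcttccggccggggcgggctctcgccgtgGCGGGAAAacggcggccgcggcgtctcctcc
PCNA: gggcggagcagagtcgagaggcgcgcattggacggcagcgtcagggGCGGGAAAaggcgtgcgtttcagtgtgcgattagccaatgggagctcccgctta
E2F2: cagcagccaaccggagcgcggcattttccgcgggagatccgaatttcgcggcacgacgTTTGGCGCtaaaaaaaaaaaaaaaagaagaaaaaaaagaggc
A match describes letters only, and binding at these sites was not measured.

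Levels are the deposited FPKM (reads corrected for transcript length and for library depth), in which many decimal marks had been lost and were restored. For the 23 members with 1 transcript, the values are whole numbers of reads. For the 24 with several transcripts, the values of 1 transcript were read closest together, so that the differences are given but a factor of 10 common to all 8 libraries is unknown: 22 of them could lie 10 times lower and 11 of them 10 times higher. The whole-read genes held 3.45 M to 4.63 M reads per library, and among the 23 members with read numbers the lowest value was 51 reads (E2F2 with TGF-β). The other 24 have no read number. The knockdown was present: SOX4 stood at 8.74 and 8.04 FPKM in untreated scrambled cells, 0.923 and 1.02 in untreated SOX4-shRNA cells, 18.7 and 17.6 with TGF-β in scrambled cells and 2.37 and 1.88 with TGF-β in SOX4-shRNA cells. Of 9 TGF-β response genes 6 were called higher over both kinds of cell (5.78% of all genes). None was called lower, and 1 lay below 0 (-0.50). Among the 6 was LTBP2, a matrix protein that binds latent TGF-β complexes (+1.30, SE 0.08, adjusted p = 0.000827). All 10 epithelial markers were expressed, with KRT5 at 2886 FPKM or more. KRT14 and ITGA6 among them were called higher with TGF-β over both kinds of cell, and none lower. Among all genes 5.78% were called higher and 2.93% lower. The estimate was below 0 for 4 of the 10 markers, with 3 lower at an unadjusted p under 0.05 (12.5% of all genes). With the SOX4 shRNA over both conditions 1 of the 10 was called higher and 1 lower, where 1.77% and 3.36% of all genes were. Of 5 endothelial and 5 leukocyte markers none was tested: CDH5 and CD3E have no row in the table used here, and the other 4 of each list were too low, LYZ highest at 1.004 FPKM. Of 9 fibroblast markers 6 were tested. Over the groups COL1A1 and COL1A2 were called higher with TGF-β (5.78% of all genes), and COL1A1, COL1A2 and COL3A1 lower with the shRNA (3.36%). The 6 summed to 165 to 183 FPKM in untreated and 230 to 258 in treated scrambled cells, and to 65.1 to 85.6 and 110 to 134 in SOX4-shRNA cells, as read. DCN reached 1.11 FPKM at most, and LUM and PDGFRA at most 0.105 and 0.103. The part of such markers in the results on replication genes was not tested.

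With TGF-β the replication genes were lower as a group in both kinds of cell. Over scrambled and SOX4-shRNA cells together (4 libraries against 4), 14 of the 47 were called lower and none higher, at limma's Benjamini-Hochberg adjusted p under 0.05, where 2.93% of all genes were called lower and 5.78% higher. They were MCM2, MCM3, MCM6, MCM7, GINS2, PCNA, RFC3, RFC5, PRIM1, POLE2, UNG, CHAF1A, CHAF1B and E2F2, and TGF-β left them at 36.7% to 75.4% of their untreated FPKM. The estimate was below 0 for 46 of the 47, with a median log2(FPKM + 1) difference of -0.37, against 54.5% of all genes and a median of -0.03. All 4 treated libraries lay under all 4 untreated ones for 28 members, an order that 7.73% of all genes showed. In RNA from whole cultures, a smaller share of cells in S phase and less of these transcripts per cell cannot be told apart.

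The calls rest on both kinds of cell together. In scrambled cells alone none of the 47 was called, where 0.325% of all genes were called lower and 1.32% higher. There the smallest adjusted p was 0.0671 (E2F2), although 25 members were lower at an unadjusted p under 0.05 (7.87% of all genes), and in a fit of the 5307 whole-read genes alone 3 of 23 members were called lower (2.28% of those genes). In SOX4-shRNA cells RFC3 and E2F2 alone were called lower, where 0.383% of all genes were, against 2.2% called higher. Leaving out any 1 of the 8 libraries brought the 14 calls down to between 1 and 5, with E2F2 called each time. The direction was steadier: between 45 and 47 members stayed below 0 in each of those fits, with medians between -0.34 and -0.39. The 23 whole-read members, whose values do not depend on reading several transcripts, were all below 0, with a median of -0.37 and 6 called. In the fit of whole-read genes alone 12 of these 23 were called lower, where 9.01% of the genes were.

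**Figure D1:**
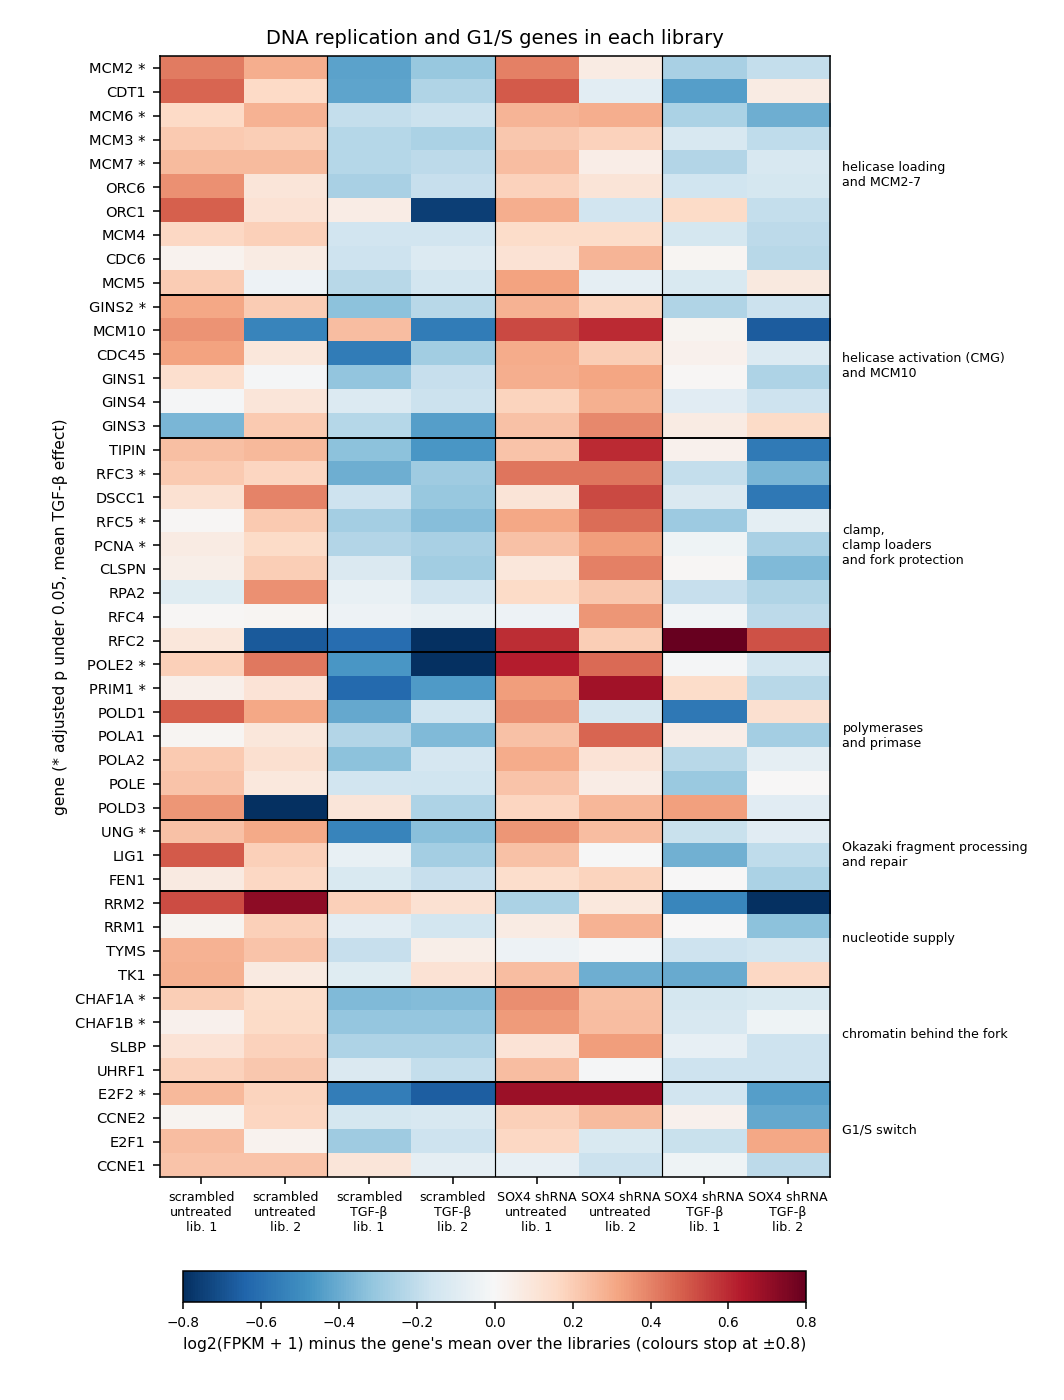
Heat map of the 47 members (rows, grouped by role) in the 8 libraries (columns), coloured by log2(FPKM + 1) minus the gene's own mean over the libraries. The 4 untreated libraries have member medians between 0.17 and 0.24 and the 4 TGF-β libraries between -0.24 and -0.13, in both kinds of cell.

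The shift was seen in each library and not in 1 alone. Relative to each gene's mean, the median member stood at 0.20 and 0.17 (log2) in untreated scrambled cells and at -0.23 and -0.24 with TGF-β. In SOX4-shRNA cells it stood at 0.24 and 0.24 without and at -0.13 and -0.19 with TGF-β. The medians over all genes lay within -0.01 and 0.03 in the 8 libraries.

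Helicase loading genes and the MCM2 to MCM7 ring held 4 of the 14 calls among 10 members, with a median difference of -0.39, and in 7 of the 10 the treated libraries lay under all untreated ones. MCM6, a ring subunit (chr2:136597196-136634013, minus strand, 17 exons), was 48.1 and 52.4 FPKM in untreated scrambled cells, 37.5 and 38.1 with TGF-β, 52.1 and 52.9 in untreated SOX4-shRNA cells and 35.9 and 32.6 with TGF-β. The treated libraries were the 4 lowest, and MCM6 fell by 0.50 (SE 0.09, adjusted p = 0.0263) to 75.1% of untreated in scrambled and 65.3% in SOX4-shRNA cells, on 1772 to 2943 reads per library. This gene carries the overlapping pair of E2F letters printed above.

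MCM2, the subunit that also carries histones at the fork (chr3:127317253-127341279, plus strand, 16 exons), read 62.0 and 56.9 in untreated scrambled cells and 34.2 and 37.3 with TGF-β, and 61.6 and 48.6 against 38.6 and 40.5 in SOX4-shRNA cells. It fell by 0.59 (SE 0.11, adjusted p = 0.0315), with no overlap between treated and untreated libraries. An antisense gene overlaps 1113 of its 3434 exonic bases, and with no strand setting given in the sources used here the reads of both cannot be told apart. MCM3 (chr6:52128812-52149679, minus strand, 17 exons) was 103 and 103 FPKM in untreated scrambled cells, 76.2 and 74.9 with TGF-β, 104 and 101 in untreated SOX4-shRNA cells and 81.7 and 77.4 with TGF-β. As read, replicates of MCM3 were within a few FPKM of each other, though its readings were chosen for lying close together. A change of -0.40 (SE 0.08, adjusted p = 0.0394) was called. MCM7 (chr7:99689856-99699563, minus strand, 15 exons) read 14.6 and 14.6, then 10.2 and 10.3 with TGF-β, and 14.5 and 12.6, then 10.1 and 10.96, in SOX4-shRNA cells. Its change was -0.40 (SE 0.08, adjusted p = 0.0325), the same size as that of MCM3.

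The remaining 6 loading genes did not pass the test, with differences from -0.52 to -0.21 and adjusted p from 0.062 to 0.39. They were the ring subunits MCM4 (-0.33) and MCM5 (-0.21), the origin recognition subunits ORC1 (-0.37) and ORC6 (-0.37), the loader CDC6 (-0.24) and its partner CDT1 (-0.52), which is destroyed in S phase. With the transcripts of a gene summed, ORC1 (-0.55, adjusted p = 0.00766) and ORC6 (-0.40, adjusted p = 0.0391) were called lower. Such sums, here and below, weigh each transcript as read, so the unknown factor of 10 could change them. The ORC1 row used could lie 10 times higher.

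Of the 6 genes that turn the ring into a helicase 1 was called lower, and the median difference was -0.41. GINS2, a GINS subunit (chr16:85709804-85723679, minus strand, 5 exons), was 63.5 and 59.1 FPKM in untreated scrambled cells, 40.5 and 43.6 with TGF-β, 62.2 and 57.9 in untreated SOX4-shRNA cells and 43.2 and 45.2 with TGF-β. Every treated library was lower than every untreated one, and GINS2 fell by 0.48 (SE 0.09, adjusted p = 0.0304) to 71.1% of untreated. Its reads in treated SOX4-shRNA cells, 590 and 670, both divide by 10, so values 10 times lower there are possible, and the reading used held 0.959 of the posterior. The 5 others were below 0 without passing the test: CDC45 (-0.45), GINS1 (-0.37), GINS3 (-0.23), GINS4 (-0.27) and MCM10 (-0.48), a factor needed to start the helicase. Summed over transcripts, CDC45 was called at -0.40 (adjusted p = 0.034), and in that fit GINS1, which has 1 transcript, was called as well.

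**Figure D2:**
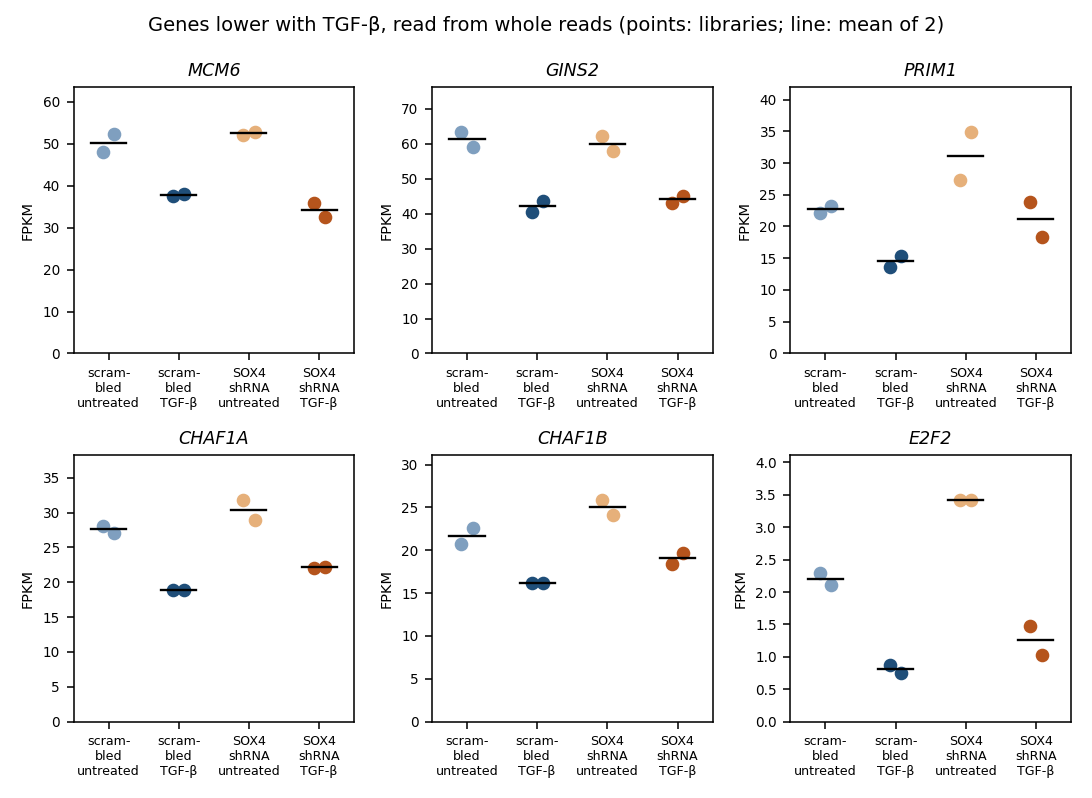
FPKM by group for the 6 called members with whole reads (MCM6, GINS2, PRIM1, CHAF1A, CHAF1B and E2F2), 1 point per library and a bar at the mean of 2 libraries. In each panel both TGF-β groups have a lower mean than the untreated group of the same cells, and in PRIM1 alone the treated and untreated libraries overlap.

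Among the sliding clamp, its loaders and fork protection factors, 3 of 9 were called lower (median -0.39). PCNA, the clamp itself (chr20:5095599-5107272, minus strand, 6 exons), was 20.8 and 22.2 FPKM in untreated scrambled cells, 16.8 and 16.5 with TGF-β, 23.6 and 25.3 in untreated SOX4-shRNA cells and 19.4 and 16.4 with TGF-β. It fell by 0.39 (SE 0.09, adjusted p = 0.0469), close to the threshold. Pseudogenes named after PCNA are annotated, as after RFC3, RFC5, UNG and RRM2, so reads could have been split between copies.

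RFC3 and RFC5 are subunits of the loader that opens the clamp. RFC3 (chr13:34392206-34540695, plus strand, 9 exons) was 30.8 and 30.03 FPKM, then 20.03 and 21.7 with TGF-β, in scrambled cells, and 36.2 and 36.2, then 23.2 and 20.4, in SOX4-shRNA cells. The fall was 0.62 over both kinds of cell (SE 0.09, adjusted p = 0.0119) and was also called in SOX4-shRNA cells alone, at -0.71 (SE 0.12, adjusted p = 0.0436), where every fit without 1 library lost that call (adjusted p 0.091 to 0.163). In scrambled cells alone the value was -0.53 (SE 0.12, adjusted p = 0.104). RFC5 (chr12:118451393-118470935, plus strand, 11 exons) was 25.9 and 29.8, then 21.1 and 20.1 with TGF-β, in scrambled cells, and 32.1 and 35.5, then 20.9 and 24.3, in SOX4-shRNA cells. It fell by 0.49 (SE 0.10, adjusted p = 0.036) without overlap.

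Not called in this role were TIPIN, a fork protection partner of TIMELESS (-0.66, SE 0.16, adjusted p = 0.0561), DSCC1, part of an alternative clamp loader (-0.58), CLSPN, the checkpoint mediator claspin (-0.37), RPA2, a subunit of the single-strand binding protein (-0.32), RFC4 (-0.17) and RFC2 (-0.10). TIPIN had a larger estimate than most called members, and a larger SE. With transcripts summed TIPIN was called at -0.67 (adjusted p = 0.0345), and in that fit DSCC1, which has 1 transcript, was called too.

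Polymerases and primase had 2 calls among 7 (median -0.40). POLE2, the second subunit of the leading-strand polymerase epsilon (chr14:50110273-50155140, minus strand, 19 exons), was 87.6 and 103 FPKM in untreated scrambled cells, 55.1 and 36.1 with TGF-β, 119 and 105 in untreated SOX4-shRNA cells and 76.1 and 69.3 with TGF-β. It fell by 0.85 (SE 0.16, adjusted p = 0.0307) to 47.8% of untreated in scrambled and 64.9% in SOX4-shRNA cells, and the treated scrambled pair was spread widest. PRIM1, the catalytic primase subunit (chr12:57124222-57146158, minus strand, 13 exons), was 22.1 and 23.3, then 13.7 and 15.4 with TGF-β, in scrambled cells, and 27.4 and 34.9, then 23.9 and 18.3, in SOX4-shRNA cells. PRIM1 fell by 0.58 (SE 0.13, adjusted p = 0.0464), and it was the only one of the 14 whose treated and untreated libraries overlapped over the 8 libraries (23.9 against 22.1). Exons of other genes overlap up to 362 of its 1423 exonic bases.

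The other 5 polymerase genes were not called. POLA1 (-0.40) and POLA2 (-0.37), of the polymerase that extends the primers, POLD1 (-0.51), the catalytic subunit of polymerase delta, and POLE (-0.30), that of polymerase epsilon, were below 0. POLA2, which has 1 transcript, was called in the fit with summed transcripts. POLD3, an accessory subunit of delta, was the 1 member above 0, at 0.05 (SE 0.28, adjusted p = 0.943).

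Of 3 genes for Okazaki fragments and repair, UNG was called. UNG removes uracil from DNA, and its row is the transcript of the nuclear form (chr12:109535402-109564530, plus strand, 7 exons), at 46.2 and 48.5 FPKM in untreated scrambled cells, 26.9 and 30.8 with TGF-β, 50.2 and 46.6 in untreated SOX4-shRNA cells and 34.5 and 36.7 with TGF-β. This transcript fell by 0.57 (SE 0.09, adjusted p = 0.0212), but with the transcripts summed as read the change was -0.12 (adjusted p = 0.648). The weight of each transcript in that sum is not known, because their levels relative to each other are unsure. The call is thus for 1 transcript, and whether the gene as a whole fell is not settled. The flap nuclease FEN1 (-0.28) and the ligase LIG1 (-0.46, adjusted p = 0.062) were not called, though LIG1 was with its transcripts summed (-0.43, adjusted p = 0.0272).

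None of the 4 nucleotide supply genes was called with TGF-β (median -0.25). The estimates were -0.53 for RRM2 (SE 0.13, adjusted p = 0.0608) and -0.28 for RRM1, the subunits of ribonucleotide reductase, and RRM2 was called with its transcripts summed (-0.54, adjusted p = 0.034). They were closer to 0 for thymidylate synthase TYMS (-0.22) and thymidine kinase TK1 (-0.11).

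Chromatin genes had 2 calls among 4 (median -0.38), and all 4 had their treated libraries under all untreated ones. CHAF1A and CHAF1B form the chaperone that lays histones on new DNA together with PCNA. CHAF1A (chr19:4402637-4445015, plus strand, 15 exons) was 28.1 and 27.1, then 18.8 and 18.9 with TGF-β, in scrambled cells, and 31.8 and 29.0, then 22.0 and 22.2, in SOX4-shRNA cells, a fall by 0.48 (SE 0.08, adjusted p = 0.0202). CHAF1B (chr21:37757690-37791313, plus strand, 14 exons) was 20.7 and 22.6, then 16.1 and 16.1, and 25.9 and 24.1, then 18.4 and 19.7, a fall by 0.39 (SE 0.08, adjusted p = 0.0365). Both subunits thus kept 70.7% and 75.4% of their untreated levels. SLBP, which binds the stem-loop of histone mRNA (-0.37), and UHRF1, which guides maintenance methylation (-0.32), were not called.

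Of the 4 genes of the G1/S switch E2F2 was called, with the smallest adjusted p of all members. E2F2, an activating E2F factor (chr1:23832930-23857725, minus strand, 7 exons), was 2.29 and 2.11 FPKM in untreated scrambled cells, 0.876 and 0.744 with TGF-β, 3.42 and 3.42 in untreated SOX4-shRNA cells and 1.48 and 1.03 with TGF-β. All treated libraries were lower, and E2F2 fell by 0.90 (SE 0.11, adjusted p = 0.00784), on 51 to 265 reads per library. Because the added 1 FPKM weighs on so low a gene, the FPKM themselves show a larger change, to 36.8% of untreated in scrambled and 36.7% in SOX4-shRNA cells. In SOX4-shRNA cells alone the value was -0.98 (SE 0.16, adjusted p = 0.0349), not called in any fit without 1 library (adjusted p 0.0661 to 0.156), and in scrambled cells it was -0.82 (SE 0.16). E2F1 (-0.16), CCNE1 (-0.11) and CCNE2 (-0.32), the cyclins E that drive entry into S phase, did not pass the test.

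The response to TGF-β was compared between the kinds of cell with the interaction term, and 0 members were called, where 0.316% of all genes were called lower and 0.291% higher. None had an unadjusted p under 0.05, where 1.85% of all genes were lower and 2.07% higher at that level, the smallest adjusted p was 0.999, and the differences ran from -0.81 to 0.78. A p that misses the threshold does not show equal responses, and the 2 libraries per group leave room for differences of this size. The estimate was below 0 in both kinds of cell for 44 members, as it was for 39.0% of all genes, and 34 had no overlap within both kinds, against 13.3%. In 20 of 47 the estimate was lower in SOX4-shRNA than in scrambled cells. The median member kept 75.3% of its untreated FPKM in scrambled and 76.7% in SOX4-shRNA cells.

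**Figure D3:**
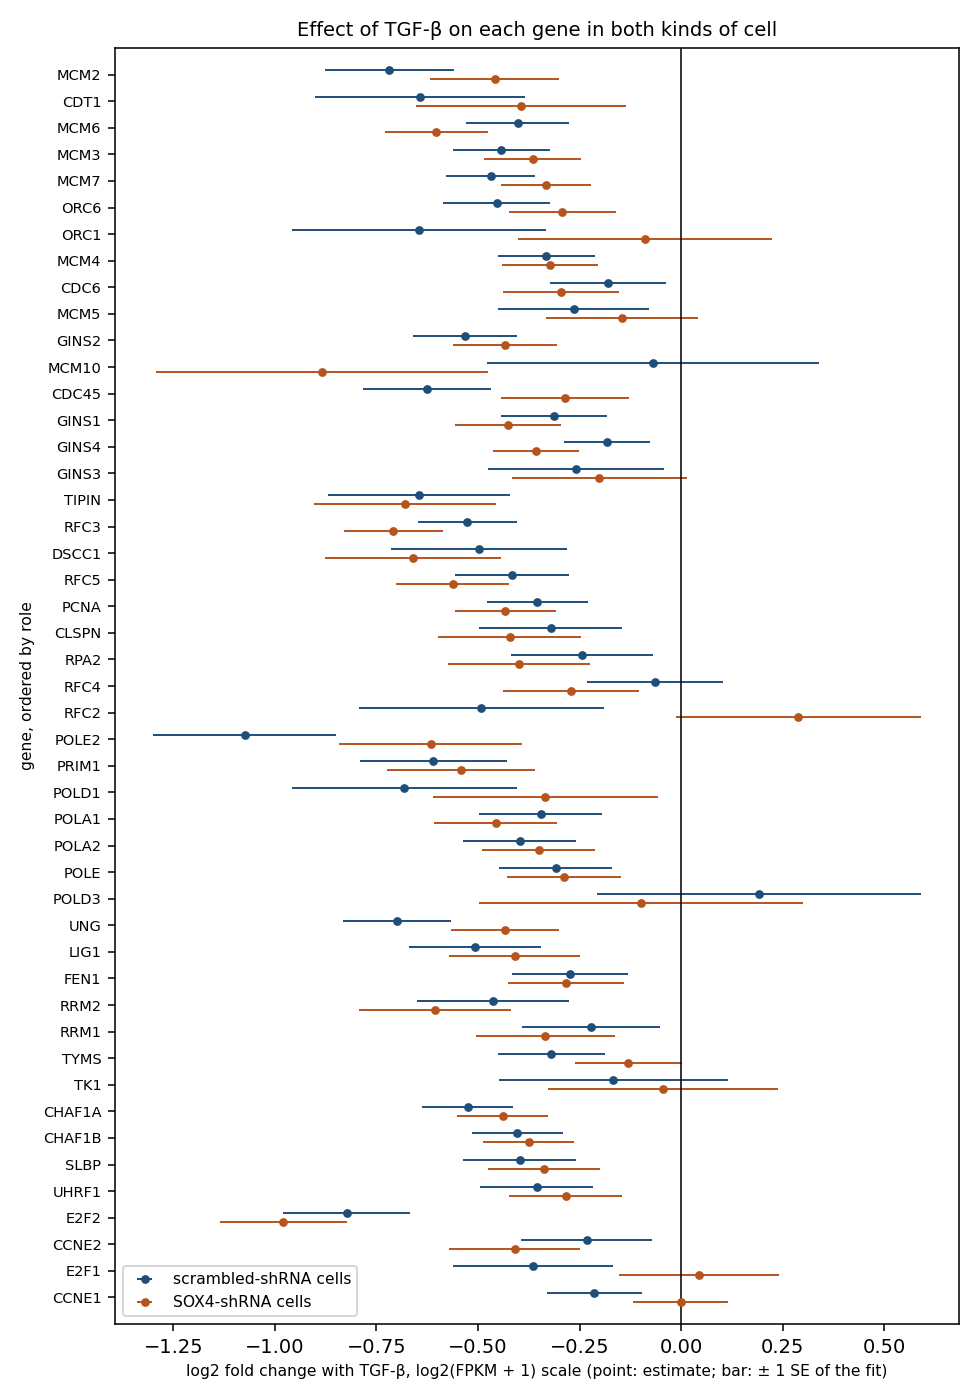
TGF-β minus untreated difference in log2(FPKM + 1) for each of the 47 members (rows), with scrambled and SOX4-shRNA cells as separate points and bars of 1 SE. Nearly all points lie left of 0, with 46 members below 0 in scrambled and 45 in SOX4-shRNA cells, and in the test of the difference no member was called.

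With the knockdown few members were called. The comparisons with and without TGF-β share no libraries with each other but share them with the TGF-β comparisons above. In untreated cells and with TGF-β 0 members were called, where 0.441% of all genes were called higher in each and 0.866% and 1.02% lower. There 1 member higher and 2 lower had an unadjusted p under 0.05 without TGF-β (5.94% and 7.66% of all genes), and 3 higher and 1 lower with it (5.34% and 7.32%). Over both conditions RFC2 was called higher and RRM2 lower, where 1.77% and 3.36% of all genes were, so these shares lie near the background. The median over the 47 was 0.06, with 33 above 0 and 14 below, where 49.8% of all genes were below 0. At an unadjusted p under 0.05, 6 members were higher and 2 lower, as were 1087 and 1298 of all 12012 genes.

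RRM2, the small subunit of ribonucleotide reductase (chr2:10260825-10351851, plus strand, 10 exons), was 138 and 158 FPKM in untreated scrambled cells, 110 and 105 with TGF-β, 80.5 and 102 in untreated SOX4-shRNA cells and 66.5 and 52.6 with TGF-β. All 4 SOX4-shRNA libraries lay under all 4 scrambled ones, as in 5.65% of all genes. RRM2 differed by -0.77 with the shRNA (SE 0.13, adjusted p = 0.029), or 0.59 times the scrambled level, and the other subunit RRM1 differed by 0.01. Leaving out 1 library gave adjusted p between 0.0482 and 0.124, and the call was kept only without replicate 1 of the treated or replicate 2 of the untreated SOX4-shRNA cells.

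RFC2, a clamp loader subunit with 5 transcripts in the table (chr7:73645829-73668788, minus strand, 11 exons), was 37.04 and 21.4 FPKM in untreated scrambled cells, 22.4 and 17.4 with TGF-β, 52.7 and 39.8 in untreated SOX4-shRNA cells and 63.3 and 49.8 with TGF-β. All 4 SOX4-shRNA libraries lay above all 4 scrambled ones, as in 4.2% of all genes, although the scrambled libraries were spread wide. The transcript was higher by 1.07 (SE 0.21, adjusted p = 0.0451), or 2.09-fold, and the sum of its transcripts by 0.50 (adjusted p = 0.048). Leaving out 1 library gave adjusted p between 0.0414 and 0.163, and the call was kept only without replicate 1 of the untreated scrambled cells. With TGF-β the RFC2 difference over both kinds of cell was -0.10 (adjusted p = 0.81).

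**Figure D4:**
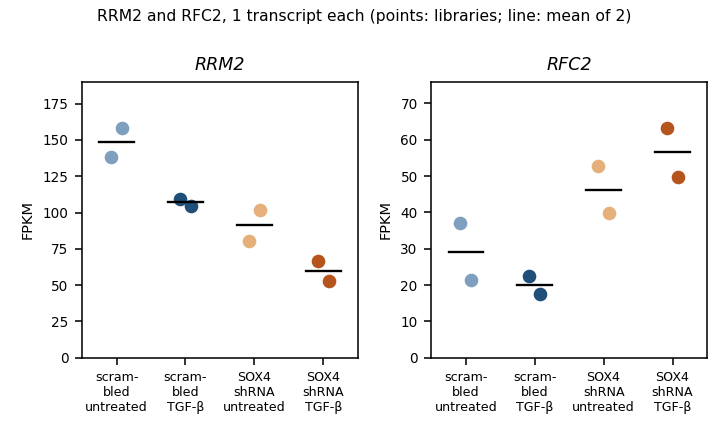
FPKM of RRM2 and RFC2 by group, 1 point per library and a bar at the mean of 2 libraries. RRM2 libraries with the SOX4 shRNA lie between 52.6 and 102 and scrambled ones between 105 and 158, and RFC2 libraries with the SOX4 shRNA lie between 39.8 and 63.3 and scrambled ones between 17.4 and 37.04.

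Other replication genes, 36 with no member among them, gave 3 calls lower and none higher with TGF-β over both kinds of cell. Of the 36, 32 were below 0, with a median of -0.31. Among all genes 2.93% were called lower and 5.78% higher, and 54.5% were below 0. TICRR, which helps load CDC45, was 7.72 and 7.44 FPKM, then 5.31 and 4.73 with TGF-β, in scrambled cells, and 8.60 and 8.20, then 5.96 and 5.495, in SOX4-shRNA cells. It fell by 0.50 (SE 0.07, adjusted p = 0.015), and 2 others fell too. ORC5, an origin recognition subunit, was 21.04 and 22.7, then 16.7 and 14.5 with TGF-β, in scrambled cells, and 20.04 and 21.2, then 15.4 and 13.3, in SOX4-shRNA cells (-0.48, adjusted p = 0.0313). MCM9, a relative of the ring subunits, was 34.4 and 37.85, then 27.5 and 28.1, and 49.7 and 53.7, then 37.3 and 30.8 (-0.48, adjusted p = 0.041). The mitotic genes gave 0 calls among 30, with 12 lower at an unadjusted p under 0.05 (12.5% of all genes) and a smallest adjusted p of 0.0523, and 28 below 0 with a median of -0.34. Their medians are near that of the 47, and the difference between the lists was not tested.

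Regulators around G1/S moved in both directions, with 3 called higher and 4 lower among the 29 tested. Among all genes 5.78% were called higher and 2.93% lower, and the median of the regulators was -0.04. CDKN2B, the inhibitor of CDK4 and CDK6, was 9.996 and 9.20 FPKM, then 18.6 and 18.4 with TGF-β, in scrambled cells, and 10.9 and 11.4, then 21.7 and 16.2, in SOX4-shRNA cells. It rose by 0.79 (SE 0.11, adjusted p = 0.0107), and so did E2F7, a repressing E2F factor (0.61, adjusted p = 0.0124), and cyclin D1, CCND1 (0.41, adjusted p = 0.0414). E2F7 was 10.3 and 11.8, then 18.8 and 17.5 with TGF-β, in scrambled cells, and 11.2 and 12.2, then 18.7 and 16.7, in SOX4-shRNA cells. CCND1 was 85.8 and 80.1, then 107 and 106 with TGF-β, in scrambled cells, and 82.5 and 77.7, then 108 and 112, in SOX4-shRNA cells.

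Lower were CDC25A, the phosphatase that activates CDK2 (-0.62, adjusted p = 0.00631), SKP2, which marks CDKN1B for destruction (-0.62, adjusted p = 0.0231), and, named after their values were seen, CCND2 (-0.53, adjusted p = 0.0231) and CDKN2C (-0.65, adjusted p = 0.0492). CDC25A was 19.7 and 20.2, then 12.9 and 13.3 with TGF-β, in scrambled cells, and 23.6 and 23.7, then 14.1 and 14.96, in SOX4-shRNA cells. SKP2 was 37.05 and 33.1, then 22.96 and 22.1, and 50.3 and 60.1, then 37.6 and 33.2. SKP2 was also higher with the SOX4 shRNA (0.63, adjusted p = 0.0271). MYC, at 164 and 134, then 94.5 and 95.4 in scrambled cells and 176 and 132, then 111 and 123 in SOX4-shRNA cells, did not pass the test (-0.51, adjusted p = 0.069). CDKN1A, the inhibitor p21, was read at 11.8 and 11.9, then 18.4 and 21.2 with TGF-β, in scrambled cells and at 50.9 and 37.1, then 10.7 and 14.5, in SOX4-shRNA cells. The 50.9 and 37.1 could also be 5.09 and 3.71, which would turn its direction with TGF-β in SOX4-shRNA cells, so no change is stated for this gene.

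**Figure D5:**
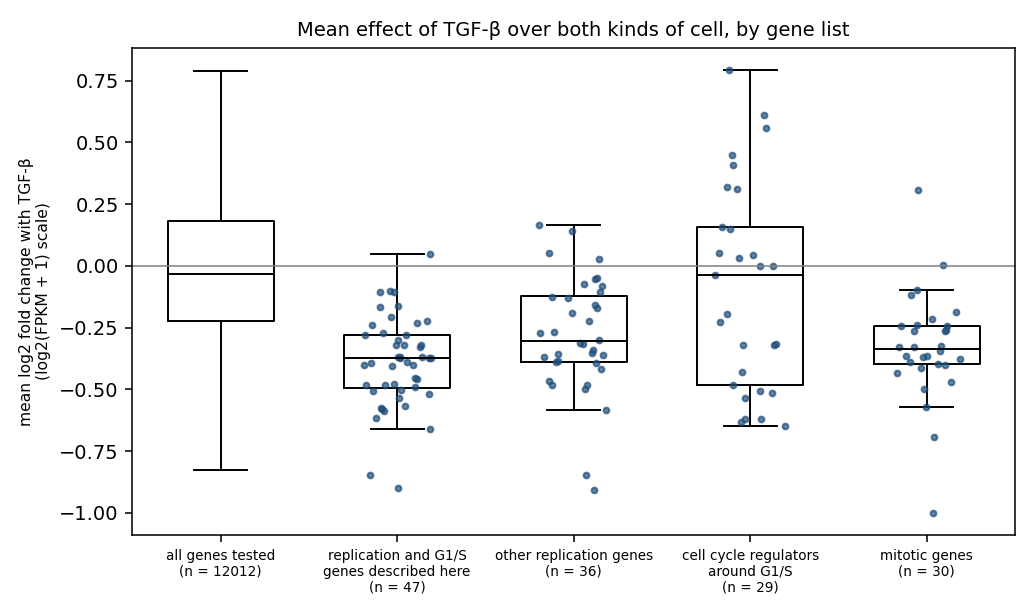
TGF-β minus untreated difference in log2(FPKM + 1) over both kinds of cell for all 12012 genes, the 47 members, other replication genes, regulators around G1/S and mitotic genes. Points are genes (not drawn for all genes), boxes span the quartiles with a line at the median, and whiskers reach the farthest gene that is no box-plot outlier; the members' median of -0.37 and the mitotic genes' of -0.34 lie under the median of -0.03 over all genes, and the regulators spread on both sides of 0.

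The genes outside all lists whose pattern over the 8 libraries was most like the mean of the 47 were NEDD9, POLR1A and NCAPD2. Pearson's r of log2(FPKM + 1) with the mean member was 0.992, 0.990 and 0.990, over 8 libraries that share the 4 groups, and is given as a description. NEDD9, a scaffold protein of focal adhesions, was 43.2 and 45.1, then 18.4 and 19.0 with TGF-β, in scrambled cells, and 59.4 and 50.8, then 23.3 and 21.02, in SOX4-shRNA cells (-1.24, adjusted p = 0.00155). POLR1A, the largest subunit of RNA polymerase I, changed by -0.51 (adjusted p = 0.0102), and NCAPD2, a condensin subunit, by -0.37 (adjusted p = 0.0503), which did not pass the test.

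As read, replicates of the members were close, though readings were chosen in part for lying close together. Levels were not matched between the members and all genes. The larger of 2 replicate values exceeded the smaller by a median factor of 1.09 in untreated and 1.09 in TGF-β-treated scrambled cells, and by 1.12 and 1.15 in SOX4-shRNA cells, against 1.16, 1.11, 1.23 and 1.23 over all genes. Canonical exons of 17 members overlap those of another gene.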

How the data were processed

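RNA was sequenced from 8 libraries, 2 for each of 4 groups, which the titles give. A stranded kit that depletes ribosomal RNA and single reads were used, per the labels' protocols. The molecule label says polyA RNA instead, and which holds is unsure. Cuffdiff, Cufflinks 2.2.1 and TopHat2 2.0.9 are the tools and hg19 is the build, per the submitters' processing notes. For the strand setting, and for how libraries were scaled, the method is not given in the sources used here. The deposited table of 48175 RefSeq transcripts holds values of another kind than counts, taken as FPKM from the tools the authors used.

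In 34.1% of cells the decimal mark was lost, and 13.9% were in damaged exponent form and set to 0. Marks were restored where a gene with 1 transcript gave whole numbers of reads (5322 of 5670 genes, 93.9%, against 48 with random digits, within 0.001 reads beyond rounding). Elsewhere the readings closest together were taken, which gave the same differences in 97.5% of the genes with whole reads. Of 9503 library pairs with a lower reading possible, 93 had 2 read numbers that 10 divides, where chance gives 95.0. Symbols were matched for 97.8% of transcripts, and gene coordinates were taken from the GRCh37 (hg19) lift of GENCODE 44.

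Each gene was represented by its transcript with the highest median and kept at 1 FPKM or more in at least 2 libraries (12012 genes, of which 5307 have whole reads). The test was limma 3.58.1 (R 4.3.3) on log2(FPKM + 1) (1 fit of 4 groups, 4 residual degrees of freedom, intensity trend), and p-values were Benjamini-Hochberg adjusted over all genes, with calls under 0.05. Differences on this scale understate the change of low genes. The script was tested on simulated data. Promoter windows came from RefSeq (GRCh38.p14), with 40 of 47 members matched. MCM4, MCM5, GINS4, DSCC1, RPA2, POLD3 and CCNE2 were not in that table. The printed stretches were located by exact match in GRCh37.

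Members and lists were chosen with earlier results of these data known. Values in every library are given for each member called in any comparison, and of other lists up to 4 called genes by adjusted p are named, plus CDKN2B, CDKN1A, CCND1 and MYC. A gene of the TGF-β response list is not reported here. The genes most like the members are 3 by Pearson's r. Alternatives were the pseudocount, 2 filters, centring, no intensity trend, sums of transcripts, closest readings throughout, whole-read genes alone, fits of only the groups compared, leaving out each library in turn, and a block for the replicate number. A crossed block, whole reads for genes with several transcripts, the other factor of 10 and voom on whole reads were added after seeing the data.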

Additional observations from a re-analysis of the deposited data

Results flagged for a closer look

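The difference in TGF-β response between SOX4-shRNA and scrambled cells passed the test for 3 genes of the lists, none of them a member. It was -1.95 for ADAM19, -2.41 for CDKN1A and -2.04 for TGFBI, on the log2(FPKM + 1) scale. Each turns on how untreated SOX4-shRNA cells are read: ADAM19 at 36.5 and 31.8 or 3.65 and 3.18 FPKM, CDKN1A at 50.9 and 37.1 or 5.09 and 3.71, and TGFBI at 822 and 822 or 82.2 and 82.2. For ADAM19 the values are whole reads, but those of untreated SOX4-shRNA cells, 3210 and 3120, divide by 10 and are whole in both readings, and the reading used held 0.593 of the posterior. CDKN1A and TGFBI rest on closest readings. The readings are thus unsure, and the differences are not stated as findings.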

How the results depend on the processing

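Over all settings run, 45 to 47 members (45 of 46 with a mean of at least 5 FPKM, all 23 where only whole-read genes were fitted) were below 0 with TGF-β over both kinds of cell, and the 14 calls became 2 with a replicate block (RFC3 and E2F2), 22 with sums of transcripts and 1 to 5 without 1 library, where fewer samples entered the fit. Among the 23 whole-read members the calls went from 6 to 12 with whole-read genes alone and to 15 with voom. Correlations of same-numbered deviations between groups ran from -0.26 to 0.19 and do not settle whether the replicate numbers pair the samples. They were above 0 between the untreated groups (0.19) and between the TGF-β groups (0.15), and below 0 between untreated and treated groups. The block took the 2 calls in SOX4-shRNA cells alone to 0, the 1 lower with the shRNA to 0 and the 0 higher with the shRNA under TGF-β to 1. A crossed block gave 11 of 47 over both kinds of cell and 0 in SOX4-shRNA cells.

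With TGF-β in scrambled cells, 0 calls became 2 with sums of transcripts, 3 with whole-read genes alone, 3 with voom and 1 with whole reads used for genes with several transcripts. In SOX4-shRNA cells, 2 calls became 0 with closest readings throughout, with the compared groups alone and without any 1 library (0 to 0), 1 with a mean of at least 5 FPKM, and 4 with sums of transcripts or whole-read genes alone. With the shRNA over both conditions, the 1 call higher (RFC2) became 0 without a filter and 0 to 1 without 1 library. With voom or whole-read genes alone, where RFC2 was not fitted, 2 other members were called higher. The 1 call lower became 0 with voom or whole-read genes alone (RRM2 is not among them), 2 with whole reads for several transcripts, and 0 to 1 without 1 library. Whole reads for several transcripts also gave 1 lower with the shRNA in untreated cells and 1 higher in the interaction, both from 0.

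RFC2 with TGF-β ran from -0.29 to 0.090 without 1 library, the latter, a turn in direction, without replicate 1 of untreated scrambled cells. Of 234 values of named members outside the leave-one-out fits, 194 kept their side of the threshold, 39 lost a call, 1 gained one and 0 turned direction. The cause of these changes was not tested. All genes called with TGF-β over both kinds of cell numbered 1046, 464 with a replicate block and 1582 with sums of transcripts. Among members with read numbers E2F2 had the fewest, 51 in 1 library, and read numbers are not known for 24 members.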

Other observations

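The replicates of SOX4-shRNA cells split the members, as they split all genes. In 21 of 47 members replicate 2 was higher in untreated cells and replicate 1 with TGF-β, and in 16 the reverse held, as it did for 36.7% and 34.9% of all 12012 genes. The other members had the same replicate higher in both groups. This was replicate 1 in 7 and replicate 2 in 3, against 14.5% and 13.9% of all genes. TK1 was 92.2 and 58.8 FPKM in untreated and 58.4 and 87.2 in treated SOX4-shRNA cells, and POLD1 was 25.1 and 17.3, then 12.6 and 21.1. PRIM1 went the other way, at 27.4 and 34.9, then 23.9 and 18.3. These genes were chosen after their values were seen, and what the replicate numbers share is not stated in the labels.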
